A study of Mus musculus with 12 samples.

Results

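The 9 genes described here encode the catalytic subunits, the regulatory subunits and the inhibitor peptides of protein kinase A (PKA), and were taken by symbol from a table of 23420 genes counted in mouse inguinal white adipose tissue (iWAT). They were the catalytic genes Prkaca and Prkacb, the type I regulatory genes Prkar1a and Prkar1b, the type II regulatory genes Prkar2a and Prkar2b, and the inhibitors Pkia, Pkib and Pkig. All 9 of 9 were in the table and passed the filter on low counts, which kept 15306 genes. The fat pads came from 12 male C57BL/6 mice of 10 weeks, with 3 in each of 4 groups. All mice carried HIF2a loxP/loxP. The mice called WT had no Cre, and the HIF2α AKO mice had Adipoq-Cre in addition. Both genotypes were kept either at thermoneutrality (TN, 30 °C for 1 week) or in cold (4 to 6 °C for 3 days). Adipoq-Cre is active in adipocytes of all kinds. The effects of Cre itself and of deleting the floxed allele cannot be told apart because no group carried Cre without the floxed allele. Temperature and length of exposure cannot be told apart either.

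PKA is the kinase that carries most of the cAMP signal from β-adrenergic receptors in fat cells. At rest a dimer of regulatory subunits holds a pair of catalytic subunits inactive, and cAMP bound to the regulatory subunits sets the catalytic subunits free. Free catalytic subunits phosphorylate lipases and perilipin at the lipid droplet, and CREB in the nucleus. The inhibitor peptides bind free catalytic subunits and carry them out of the nucleus. RIIβ, the product of Prkar2b, is the regulatory subunit known for its abundance in adipose tissue and brain, whereas Cα (Prkaca) and RIα (Prkar1a) are found in nearly all cells.

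The windows just upstream of 3 members are shown because they are the catalytic pair, of which Prkaca was higher in cold and Prkacb was not, and the regulatory gene with the largest rise. Of the 9 members, 8 were matched by symbol in the RefSeq set of promoters of GRCm38.p6, and Pkia was not. Each run is the 250 bases before the first RefSeq start, read 5′ to 3′ on the strand of the gene. Capitals mark TGACG, the half-site of the cAMP response element (CRE) to which CREB binds, and ACGTG or GCGTG, the core of the hypoxia response element, each on either strand. A CACGTG holds ACGTG once on each strand, and these overlap. The Prkaca window lies at chr8:83972728-83972977 on the plus strand, that of Prkar2b at chr12:32061278-32061527 on the minus strand, and that of Prkacb at chr3:146812947-146813196 on the minus strand.
Prkaca: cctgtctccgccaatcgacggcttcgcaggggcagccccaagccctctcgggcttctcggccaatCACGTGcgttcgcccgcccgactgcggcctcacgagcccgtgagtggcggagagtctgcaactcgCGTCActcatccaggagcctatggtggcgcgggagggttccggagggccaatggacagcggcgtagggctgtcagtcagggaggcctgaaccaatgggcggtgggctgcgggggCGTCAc
Prkar2b: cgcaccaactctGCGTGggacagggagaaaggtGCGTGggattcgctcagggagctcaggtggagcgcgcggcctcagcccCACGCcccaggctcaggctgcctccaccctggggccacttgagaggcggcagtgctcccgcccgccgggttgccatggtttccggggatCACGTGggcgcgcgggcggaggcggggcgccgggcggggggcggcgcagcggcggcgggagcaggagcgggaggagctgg
Prkacb: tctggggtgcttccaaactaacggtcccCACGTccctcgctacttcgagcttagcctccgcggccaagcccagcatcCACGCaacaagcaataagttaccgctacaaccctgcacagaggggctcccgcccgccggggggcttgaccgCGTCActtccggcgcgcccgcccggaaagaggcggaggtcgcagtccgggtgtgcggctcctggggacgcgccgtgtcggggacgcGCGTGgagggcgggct

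Prkaca held TGACG at 2 places, 120 and 6 bases before its start, and a CACGTG 185 bases before it, counted to the first base of each match. Prkar2b held no TGACG in this window, and had ACGTG or GCGTG 5 times when each strand of its CACGTG is counted. Prkacb held 1 TGACG and 3 hypoxia response element cores. The first window of Prkar2a held 3 such cores and no TGACG, and those of Prkar1a, Prkar1b, Pkib and Pkig held neither. The 3 windows shown were chosen by the response to cold and do not stand for all members. Among all 32851 promoter windows of the same length, TGACG was found in 17.8% and ACGTG or GCGTG in 38.6%. The full CRE, TGACGTCA, was found in 1.55% of all windows, and among the members only before the fifth of the 6 starts of Prkar1a, 49 bases upstream. A match of letters is a description of the window, and binding was not measured here.

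Values are CPM, the read counts of a gene scaled to a library of 1000000 reads with TMM factors, and a fold change is the log2 difference of an edgeR quasi-likelihood fit of all 4 groups, given with its standard error. Each p was corrected across the 15306 tested genes (Benjamini-Hochberg), and adjusted values under 0.05 are said to pass the limit. Each library held between 22368316 and 35204631 counts on genes, and the biological coefficient of variation was 0.202. Epas1, which encodes HIF2α and so checks the labels, was not called lower where the label is HIF2α AKO. It measured 360.2 ± 76.8 CPM (SD, n = 3) in TN WT, 348 ± 53.8 in TN AKO, 627 ± 101 in cold WT and 826 ± 139 in cold AKO, where a count over the whole gene does not show whether the floxed part was transcribed. All 8 adipocyte markers listed were detected, and their sum was 7116 to 18432 CPM at TN and 24732 to 48240 CPM in cold. Summed skeletal muscle markers, 12 of 12 detected, were 1983 CPM in TN AKO mouse 2 and 1723 CPM in cold AKO mouse 1, against at most 116 CPM in the other 10 libraries. In an epithelial list, 10 of 10 detected, TN WT mouse 3 reached 241 CPM against at most 12.0 elsewhere.

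Cold raised 3 of the 9 members in either genotype. These were the catalytic subunit Prkaca, the adipose regulatory subunit Prkar2b and, more weakly, Prkar2a. None of the 9 passed the limit in the lower direction in either genotype. Among all tested genes, 15.6% rose and 5.68% fell in WT mice, and 15.6% rose and 11.5% fell in HIF2α AKO mice. An unadjusted p under 0.05 in edgeR was reached by 38.9% of all genes in WT and 42.7% in HIF2α AKO. How many of all genes showed no overlap between cold and TN mice was not counted. A lack of overlap in cold against TN is therefore only a description of the member. Comparisons within the 2 genotypes share no mice. In tissue RNA, fewer cells of a type and less RNA per cell cannot be told apart, and this holds for every change given here.

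**Figure D1:**
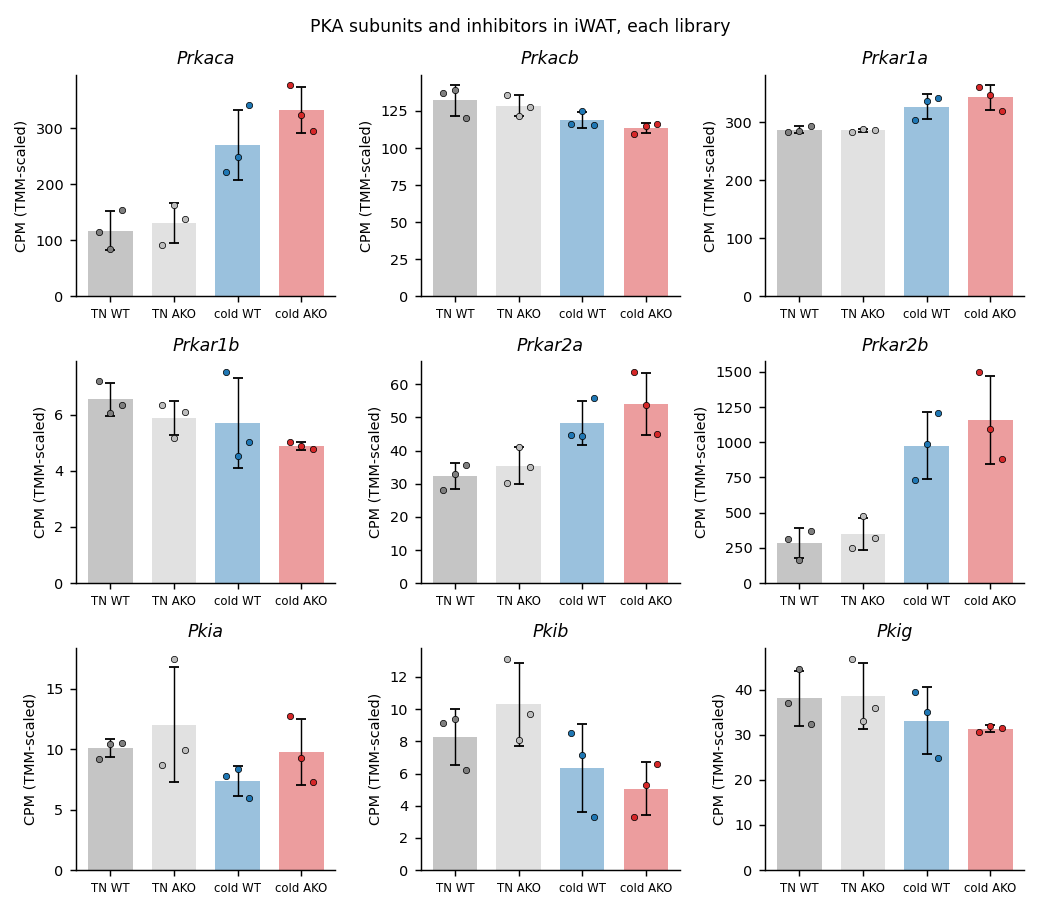
Level of each of the 9 genes in CPM (y axis, from 0, own scale per panel) in the 4 groups; points are the 3 mice, bars the mean and whiskers the SD. In Prkaca, Prkar1a, Prkar2a and Prkar2b all cold points lie above all TN points of the same genotype, whereas Prkacb, Prkar1b and the inhibitors do not rise.

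Prkaca, encoding the catalytic subunit Cα, lies at chr8:83972993-83996443 of GRCm38 on the plus strand. It measured 114, 84.4 and 153 CPM in the 3 TN WT mice and 221, 249 and 341 CPM in the cold WT mice. In HIF2α AKO mice it measured 91.6, 162 and 138 CPM at TN and 377, 324 and 295 CPM in cold. Every cold mouse was above every TN mouse, also across genotypes. The rise was 2.30-fold (95% interval 1.55 to 3.41) in WT, or 1.20 ± 0.26 on the log2 scale with an adjusted p of 0.00932. In HIF2α AKO it was 2.54-fold (95% interval 1.72 to 3.77), or 1.35 ± 0.26, with an adjusted p of 0.00471.

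Prkacb, at chr3:146729574-146812990 on the minus strand, encodes the other catalytic subunit, Cβ. Its levels were 137, 139 and 120.1 CPM in TN WT and 116, 125 and 115 CPM in cold WT. They were 136, 122 and 128 CPM in TN AKO and 109.6, 115 and 116 CPM in cold AKO. The cold mice lay below all TN mice in HIF2α AKO and overlapped with them in WT. The difference was -0.15 ± 0.08 on the log2 scale in WT (adjusted p 0.202) and -0.18 ± 0.08 in HIF2α AKO (adjusted p 0.131). Its 95% intervals, 0.791 to 1.02-fold and 0.777 to 1.01-fold, lay wholly below those of Prkaca. The annotated gene overlaps a processed pseudogene, Gm19104.

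Prkar2b, encoding RIIβ, lies at chr12:31958476-32061296 on the minus strand and had the largest change of the 9. It measured 317, 163 and 374 CPM in TN WT and 733, 986 and 1206 CPM in cold WT. It measured 249, 477 and 321 CPM in TN AKO and 1499, 1093 and 883 CPM in cold AKO. No cold mouse overlapped with a TN mouse, and TN WT mouse 2 was the lowest of all 12. The rise was 3.43-fold (95% interval 2.02 to 5.82) in WT, 1.78 ± 0.35 on the log2 scale with an adjusted p of 0.00611. The HIF2α AKO rise was 3.32-fold (95% interval 1.96 to 5.63), 1.73 ± 0.35 with an adjusted p of 0.00587.

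Prkar2a, at chr9:108689314-108750436 on the plus strand, encodes RIIα, the type II subunit of most other tissues, and holds a small nuclear RNA gene, Gm24259. It measured 28.2, 33.0 and 35.7 CPM in TN WT and 44.7, 44.3 and 56.0 CPM in cold WT. It measured 30.1, 41.2 and 35.0 CPM in TN AKO and 63.7, 53.8 and 44.9 CPM in cold AKO. The cold mice lay above the TN mice in both genotypes, by 1.498-fold (95% interval 1.17 to 1.91) in WT (adjusted p 0.0263) and 1.53-fold (95% interval 1.20 to 1.95) in HIF2α AKO (adjusted p 0.0190). This call was the least firm of the 3. It was lost when TN WT mouse 1, TN WT mouse 2 or cold WT mouse 3 was left out, and in HIF2α AKO without TN mouse 1, TN mouse 3 or cold mouse 1. Without both mice high in muscle markers, the HIF2α AKO value was 0.60 on the log2 scale with an adjusted p of 0.0529.

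Prkar1a, at chr11:109649405-109669656 on the plus strand, encodes RIα, the regulatory subunit that every cell type needs to keep free catalytic activity low. Its levels were 284, 285 and 295 CPM in TN WT and 303, 337 and 342 CPM in cold WT. They were 284, 288 and 287 CPM in TN AKO and 362, 347 and 320.0 CPM in cold AKO. The cold mice were above the TN mice without overlap in both genotypes, but the step was small. It was 1.14-fold (95% interval 0.992 to 1.31) in WT with an adjusted p of 0.147, and 1.20-fold (95% interval 1.04 to 1.37) in HIF2α AKO with an adjusted p of 0.0517. Neither passed the limit in edgeR with TMM. In HIF2α AKO the gene passed in edgeR with RLE scaling (adjusted p 0.0473) and without cold mouse 3 (0.0468). DESeq2 called the gene in both genotypes, with an adjusted p of 0.0499 in WT and 0.00140 in HIF2α AKO, and voom in HIF2α AKO with 0.0181.

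Prkar1b, at chr5:139017306-139150001 on the minus strand, encodes RIβ, which is best known from neurons, and overlaps an annotated processed transcript, Gm15672. It was among the lowest members, at 7.21, 6.07 and 6.35 CPM in TN WT and 7.52, 4.53 and 5.03 CPM in cold WT. It measured 6.35, 5.18 and 6.08 CPM in TN AKO and 5.04, 4.87 and 4.77 CPM in cold AKO. Cold WT mouse 1 was the highest of all 12 mice, whereas the cold AKO mice all lay below the TN AKO mice. The differences, -0.20 ± 0.19 and -0.26 ± 0.19 on the log2 scale, did not pass the limit (adjusted p 0.434 and 0.306).

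Of the inhibitors, Pkig was the most abundant and Pkib the least by group mean, in CPM and per length. In CPM, Pkib was above Pkia in TN AKO mouse 1 (13.1 against 8.69) and in cold WT mouse 1 (8.55 against 7.74). Pkig, at chr2:163658386-163726158 on the plus strand, encodes PKIγ, the widely expressed form. It measured 37.1, 44.7 and 32.4 CPM in TN WT, 39.4, 35.1 and 24.9 in cold WT, 46.8, 33.1 and 35.8 in TN AKO and 30.6, 32.0 and 31.5 in cold AKO. In WT the groups overlapped, and in HIF2α AKO all cold mice were just below the TN mice. The cold differences were -0.20 ± 0.18 and -0.30 ± 0.18 on the log2 scale, with adjusted p of 0.417 and 0.221. An annotated antisense transcript, Gm16316, overlaps the gene, and the strand setting of the counting is not given in the sources used here, so reads of the 2 cannot be told apart.

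Pkib, at chr10:57631981-57741112 on the plus strand, encodes PKIβ. It measured 9.14, 9.39 and 6.24 CPM in TN WT and 8.55, 7.18 and 3.30 CPM in cold WT, with overlap. In HIF2α AKO it measured 13.1, 8.07 and 9.68 CPM at TN and 3.29, 5.31 and 6.57 CPM in cold, without overlap. The HIF2α AKO difference of -1.02 ± 0.35 on the log2 scale was the largest downward one among the members and had an adjusted p of 0.0529 in edgeR, just above the limit. It was called by DESeq2 with an adjusted p of 0.0202, by voom with 0.0165 and by edgeR on the 6 HIF2α AKO libraries alone with 0.0346. In WT the difference was -0.38 ± 0.35 with an adjusted p of 0.426. It rested on 68 to 359 counts per library.

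Pkia, at chr3:7366669-7445366 on the plus strand, encodes PKIα, the form first purified from skeletal muscle, and overlaps a processed pseudogene, Gm37918. It measured 9.22, 10.5 and 10.5 CPM in TN WT and 7.74, 8.33 and 5.95 CPM in cold WT, with all cold mice below the TN mice. In HIF2α AKO it measured 8.69, 17.5 and 9.90 CPM at TN and 12.7, 9.29 and 7.29 CPM in cold. The highest values of these 2 groups, 17.5 and 12.7 CPM, were those of the mice with 1983 and 1723 CPM of muscle markers. The cold differences of -0.46 ± 0.27 in WT and -0.30 ± 0.27 in HIF2α AKO on the log2 scale did not pass the limit (adjusted p 0.231 and 0.413). Leaving out the TN mouse high in muscle markers turned the HIF2α AKO value to 0.07.

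**Figure D2:**
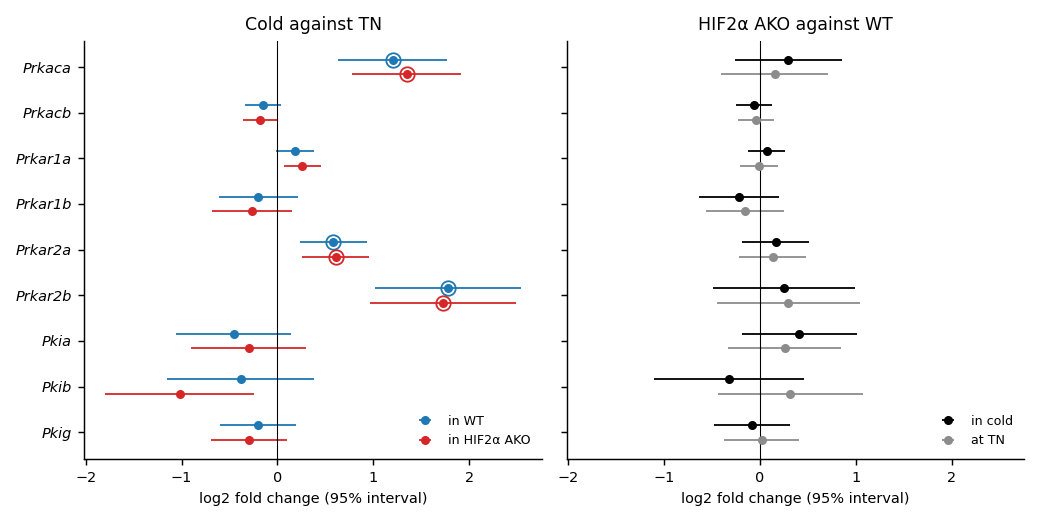
Log2 fold changes of the 9 genes with 95% intervals (x axis) for cold against TN in each genotype (left) and HIF2α AKO against WT at each temperature (right); ringed points passed an adjusted p of 0.05. Prkaca, Prkar2a and Prkar2b are ringed in both genotypes on the left, and no point is ringed on the right.

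These directions are relative to TMM scaling. With library size alone, added after the data had been seen, the median of all genes moved to -0.33 on the log2 scale in WT and -0.32 in HIF2α AKO, from -0.03 and -0.05. Calls over all genes then split into 1429 higher and 4459 lower in WT, against 2389 and 870 with TMM. In HIF2α AKO they split into 1516 and 4849, against 2381 and 1757. Prkaca and Prkar2b still rose on that scale, Prkacb was called lower in both genotypes at -0.45, and Prkar2a was called in HIF2α AKO and not in WT. Pkia was called lower in WT at -0.74 and Pkib in HIF2α AKO at -1.29. Prkar1a turned to -0.11 and -0.0099.

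Adipocyte markers moved with the members that rose. Within each of the 2 TN groups and within cold AKO, the order of the 3 mice by Prkaca, and by Prkar2b, was their order by the sum of the 8 adipocyte markers, and in cold WT it was not. For Prkacb, Pkib and Pkig the order matched in 0 of 4 groups. Adipoq, itself one of the 8, overlapped between TN and cold, at 899 to 2122 CPM and 1068 to 2467 CPM. Summed thermogenic markers, 8 of 8 detected, were 28.4 to 90.6 CPM at TN and 3350 to 8582 CPM in cold. Lymphocyte markers, 11 of 12 in the table, summed to 1372 to 2237 CPM at TN and 770 to 1338 CPM in cold, and macrophage markers, 11 of 12, to 1778 to 3058 and 1497 to 2880 CPM. The part of these lists in the members' changes was not tested.

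**Figure D3:**
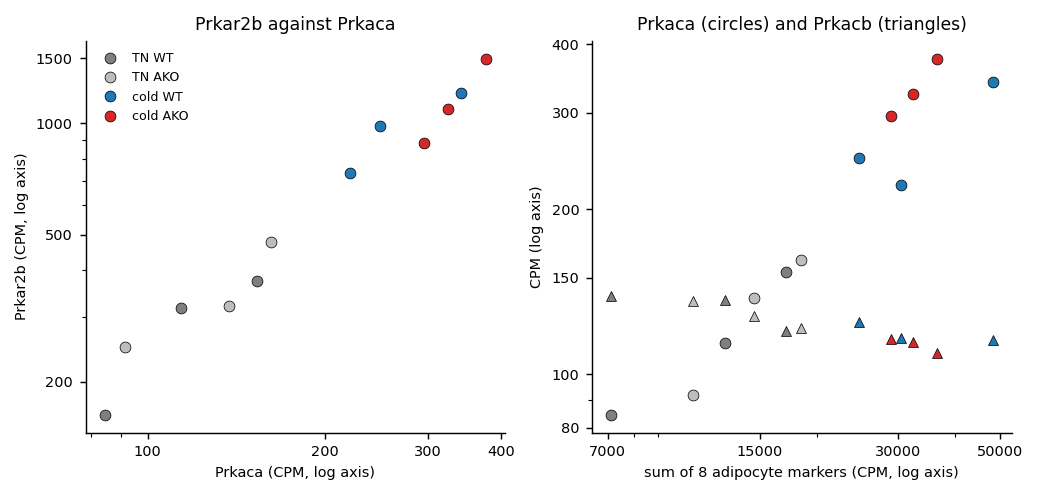
Left, Prkar2b against Prkaca in CPM, and right, Prkaca (circles) and Prkacb (triangles) against the summed CPM of 8 adipocyte markers, all on log axes, 1 point per mouse, coloured by group. Prkar2b climbs with Prkaca from 163 to 1499 CPM, and along the marker sum Prkaca climbs while Prkacb does not, with all its values between 110 and 139 CPM.

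For none of the 9 members did the difference between HIF2α AKO and WT mice pass the limit. In cold, 0 of 9 passed the limit in edgeR, in DESeq2 and in voom, and 0 had an unadjusted p under 0.05 in all 3. Over all genes 0.00653% passed in edgeR. At TN 0 of 9 passed in all 3 tools, with 0.00653% of all genes in edgeR, and an unadjusted p under 0.05 was reached by 0 members in edgeR and DESeq2 and 1, Prkar2a, in voom. Over all 15306 genes, an unadjusted p under 0.05 was reached at TN by 446 in edgeR, 512 in DESeq2 and 1473 in voom. In cold these were 451, 521 and 1177. The groups overlapped for all 9 members at both temperatures, where 7.53% of all genes showed no overlap in cold and 7.69% at TN.

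The intervals show what size of genotype difference these 3 mice a group leave possible. In cold, Prkaca was 1.23-fold (95% interval 0.834 to 1.81) in HIF2α AKO relative to WT, with cold AKO mouse 1 above all WT mice and the other 2 within their range. Prkar2b was 1.19-fold (95% interval 0.710 to 1.99), Prkar2a 1.12-fold (95% interval 0.878 to 1.42) and Prkar1a 1.05-fold (95% interval 0.914 to 1.20). Prkacb, with one of the narrowest intervals, was 0.955-fold (95% interval 0.839 to 1.09). The inhibitors were 1.33-fold (95% interval 0.875 to 2.02) for Pkia, 0.801-fold (95% interval 0.466 to 1.38) for Pkib and 0.946-fold (95% interval 0.719 to 1.24) for Pkig. Without cold AKO mouse 1, which was high in muscle markers, Pkia was 0.18 on the log2 scale instead of 0.41 and Prkar2b was 0.02 instead of 0.25.

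At TN the ratios of HIF2α AKO to WT lay between 0.897-fold for Prkar1b and 1.24-fold for Pkib. Prkaca was 1.11-fold (95% interval 0.754 to 1.64) and Prkar2b 1.23-fold (95% interval 0.733 to 2.05). Without both mice high in muscle markers, Prkaca turned to -0.03 on the log2 scale, Pkia turned to -0.11, and Prkar2b was 0.0041 in place of 0.30. Prkar2b was 0.015 without TN WT mouse 2. The difference between the genotypes in their response to cold was 0.14 ± 0.36 for Prkaca and -0.05 ± 0.48 for Prkar2b on the log2 scale. In this interaction 0 of 9 members passed the limit and 0 reached an unadjusted p under 0.05, in edgeR, DESeq2 and voom alike, and 0% of all genes passed in edgeR. An unadjusted p under 0.05 was reached there by 327 of all 15306 genes in edgeR, 380 in DESeq2 and 813 in voom. These contrasts share groups with those of cold against TN.

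Levels of different genes were compared per length, as CPM per kb of annotated exon. In TN WT the order was Prkar2b at 77.9 CPM per kb, Prkar1a at 66.6, Prkaca at 47.1, Prkacb at 15.1, Pkig at 9.54, Prkar2a at 5.06, Pkia at 2.71, Prkar1b at 1.72 and Pkib at 0.700. Prkar2b and Prkar1a overlapped between mice there, and no other neighbours did. TN AKO had the same order, from 95.6 CPM per kb for Prkar2b to 0.872 for Pkib, with no overlap between neighbours.

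In cold, Prkaca passed Prkar1a per kb of merged exons. In cold WT, Prkar2b reached 267 CPM per kb, Prkaca 109 and Prkar1a 75.7, and in cold AKO they reached 317, 133 and 79.4, without overlap between these 3. Per kb of the longest transcript, Prkaca was 119 ± 27.6 and Prkar1a 93.2 ± 5.96 in cold WT (SD, n = 3), and 146 ± 18.1 and 97.7 ± 6.05 in cold AKO. In CPM without length scaling the mean of Prkar1a stayed above that of Prkaca, at 327 against 270 in cold WT and 343 against 332 in cold AKO. Prkacb stayed below these, at 13.5 and 12.9 CPM per kb. Pkig and Prkar2a, at 8.31 and 7.58 in cold WT and 7.85 and 8.48 in cold AKO, overlapped in both groups, as did Pkia and Prkar1b in cold WT.

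The share of Prkaca in the catalytic pool rose upon cold. Prkaca made up 74.6, 68.2 and 81.8% of the summed Prkaca and Prkacb CPM per kb in TN WT and 87.0, 87.5 and 91.2% in cold WT. Among HIF2α AKO mice it made up 70.4, 82.4 and 79.2% at TN and 92.4, 90.9 and 90.0% in cold. All cold mice lay above all TN mice. The mean share rose by 13.7 percentage points in either genotype. A two-sided exact permutation test gave p = 0.1 in each genotype, the smallest that 3 against 3 allows, and p = 0.005 over both with labels exchanged within genotype, the smallest of 400 arrangements. Adjusted over the 2 shares tested, this p was also 0.005. The share uses the same counts as the test of Prkaca and is not separate evidence.

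The size of the share depends on the length given to Prkacb, whose merged exons span 8772 bases and whose longest transcript has 4347. With the longest transcript of each gene, the mean Prkaca share was 62.0% in TN WT and 80.8% in cold WT, and 65.1% and 84.7% in HIF2α AKO. The rise over both genotypes was then 19.2 percentage points, and on counts without length scaling it was 23.6. Without length scaling the mean share was 46.4% in TN WT and 68.9% in cold WT, and 49.7% and 74.4% in HIF2α AKO.

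The regulatory pool turned from a mixture of Prkar2b and Prkar1a to one mainly of Prkar2b. Prkar2b made up 54.7, 38.0 and 57.6% of the summed CPM per kb of the 4 regulatory genes in TN WT and 71.7, 75.8 and 78.7% in cold WT. Among HIF2α AKO mice it made up 48.6, 63.7 and 54.5% at TN and 81.2, 76.9 and 74.6% in cold, again without overlap. The rise was 25.3 percentage points in WT and 22.0 in HIF2α AKO, with an exact permutation p of 0.1 in each and 0.005 over both (0.005 after adjustment over the 2 shares). This share uses the same counts as the test of Prkar2b and is not separate evidence.

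Prkar1a fell as a share of this pool although its own level was not lower. Its share was 41.4, 56.2 and 38.3% in TN WT and 25.1, 21.9 and 18.9% in cold WT. In HIF2α AKO it was 46.8, 32.5 and 41.1% at TN and 16.6, 20.6 and 22.8% in cold. These values are the complement of the rise in Prkar2b and were not tested.

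**Figure D4:**
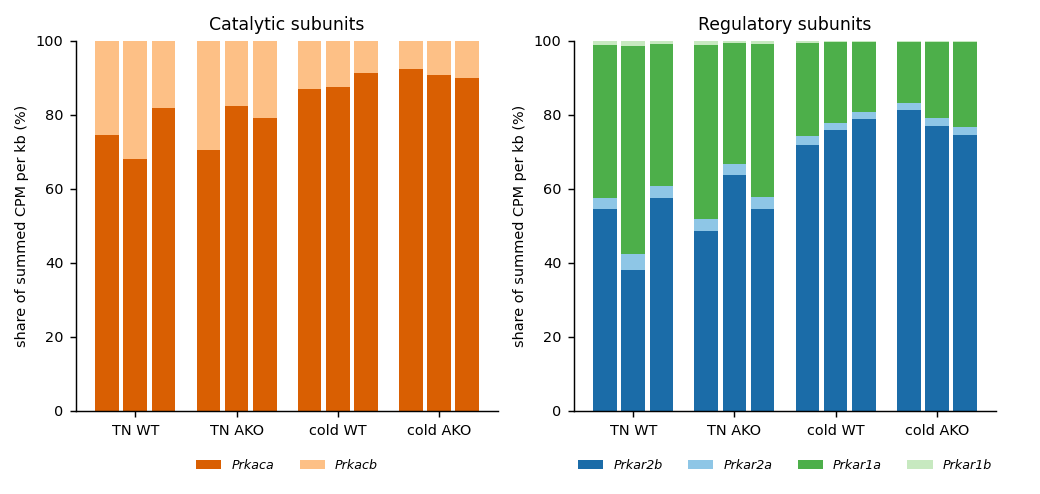
Share (%) of each gene in the summed CPM per kb of the catalytic (left) and regulatory (right) genes, 1 stacked bar per mouse, mice grouped by temperature and genotype. Prkaca fills 68.2 to 82.4% of the catalytic bar at TN and 87.0 to 92.4% in cold, and Prkar2b grows from 38.0 to 63.7% to 71.7 to 81.2% of the regulatory bar.

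The sums of the regulatory and of the catalytic genes were both higher in cold, although Prkacb and Prkar1b had values below 0 on the log2 scale and Prkar1a did not pass the limit. The summed regulatory CPM per kb was 2.43 ± 0.1303 times the catalytic sum in TN WT (SD, n = 3), 2.53 ± 0.195 in TN AKO, 2.88 ± 0.204 in cold WT and 2.75 ± 0.315 in cold AKO. The cold WT mice were above the TN WT mice and the HIF2α AKO groups overlapped. Without length scaling the ratio was 2.44 and 2.603 at TN and 3.48 and 3.48 in cold, with no overlap in either genotype, so its shift depends on the lengths used. The ratio was not tested because it is a score over the members.

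Relative to the catalytic sum, Prkar1a and the inhibitors became scarcer. Prkar1a CPM per kb was 1.10 ± 0.211 times the catalytic sum in TN WT and 1.02 ± 0.214 in TN AKO (SD, n = 3), against 0.632 ± 0.0912 in cold WT and 0.545 ± 0.0290 in cold AKO. The 3 inhibitors together were 0.218 ± 0.0733 and 0.214 ± 0.0661 times the catalytic sum at TN, and 0.0934 ± 0.0358 and 0.0749 ± 0.00498 in cold. In both quantities no cold mouse overlapped with a TN mouse. In the edgeR fit of all 4 groups with TMM neither Prkar1a nor an inhibitor was called lower in level. Library size alone called Pkia lower in WT and Pkib in HIF2α AKO. DESeq2, voom and the edgeR fit of the HIF2α AKO groups alone also called Pkib lower in HIF2α AKO. So did edgeR without TN AKO mouse 2 or without cold AKO mouse 3. These are ratios of transcripts, and protein was not measured here.

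Across the 12 libraries Prkar2b followed Prkaca most closely of the members, with a Pearson correlation of log2 CPM of 0.985, and of 0.925 for deviations from the group means. Prkacb ran the other way to Prkaca, at -0.923 and -0.825. Pkig did so at -0.802, and at -0.937 within groups. Pkib and Pkig went together at 0.872 and 0.845. These are descriptions over libraries that share tissue makeup, depth and scaling, and no p is given.

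Among 10287 genes with a mean of at least 10 CPM, the 5 most like Prkaca were Hsdl2, Mmachc, Ak3, Rab1 and Hadh, with correlations of 0.996 to 0.994 over 12 libraries. Those most like Prkar2b were Mpzl2, Emc6, Rbpms2, Mpc2 and Hadh, at 0.996 to 0.993. Hadh, a mitochondrial enzyme of fatty acid oxidation, was on both lists, Ak3 is a mitochondrial adenylate kinase and Mpc2 a subunit of the mitochondrial pyruvate carrier. Those most like Prkacb were D16Ertd472e, Zdhhc20, Cd180, Tmem154 and Smc4, at 0.975 to 0.963. Cd180 encodes a surface protein of B cells and macrophages, and Smc4 a condensin subunit.

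A-kinase anchoring proteins (AKAPs) bind regulatory subunits and place PKA at organelles. Of 25 listed, 22 were tested, and 4 rose and 2 fell in WT and 3 rose and 3 fell in HIF2α AKO. The counts that rose are near the 15.6% of all genes that rose in either genotype, and those that fell stand beside 5.68% in WT and 11.5% in HIF2α AKO. The median log2 difference was -0.06 in WT and 0.11 in HIF2α AKO, against -0.03 and -0.05 over all genes. Akap1, which anchors PKA at the outer mitochondrial membrane, rose from 66.7 ± 19.8 to 164 ± 9.40 CPM in WT (SD, n = 3) and from 82.2 ± 13.8 to 219 ± 35.5 CPM in HIF2α AKO, by 1.29 ± 0.21 and 1.41 ± 0.21 on the log2 scale (edgeR adjusted p 0.00233 and 0.00107). Opa1, a mitochondrial fusion protein that also anchors PKA on lipid droplets, rose by 1.07 and 1.18, and Arfgef2, an anchoring exchange factor of the Golgi, by 0.79 and 0.86. Akap11 was lower by a small step, -0.26 and -0.28. The others were named after their values were seen. Myrip rose by 0.99 and Ezr fell by 0.64 in WT, and Akap8l fell by 0.32 and Wasf1 by 0.81 in HIF2α AKO.

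Among 9 genes for the maturation and turnover of PKA, all tested, 2 rose and 0 fell in either genotype, and 4 in WT and 3 in HIF2α AKO had an unadjusted p under 0.05 in edgeR, against 38.9% and 42.7% of all genes. These counts are near the shares over all genes. The median was 0.24 in WT and 0.16 in HIF2α AKO. Ppp2ca, a catalytic subunit of protein phosphatase 2A, rose by 0.69 and 0.72 on the log2 scale, and Stub1, the ubiquitin ligase CHIP, by 0.44 and 0.38. Of 11 other cAMP effectors 7 were tested, of which 1 rose and 1 fell in either genotype, with medians of 0.17 and 0.09. Over all genes 15.6% rose in either genotype, and 5.68% fell in WT and 11.5% in HIF2α AKO. With 7 genes tested, 1 in each direction is near these shares. Hcn2, a cyclic nucleotide-gated channel, rose from 1.86 ± 0.239 to 11.5 ± 4.80 CPM in WT (SD, n = 3), by 2.61 ± 0.37 on the log2 scale (edgeR adjusted p 0.00132), and by 3.57 ± 0.38 in HIF2α AKO (adjusted p 0.000266). The effector that fell was Rapgef4, a cAMP-activated exchange factor, in WT by 0.54, and Cnga1, another cyclic nucleotide-gated channel, in HIF2α AKO by 1.37, both named after their values were seen.

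Of 25 PKA substrates 24 were tested. In WT 4 rose and 3 fell, and in HIF2α AKO 5 rose and 2 fell, with a median of 0.23 in both against -0.03 and -0.05 over all genes. The counts that rose are near the 15.6% of all genes, and those that fell stand beside 5.68% in WT and 11.5% in HIF2α AKO. Plin5, a perilipin of oxidative tissues, rose from 7.75 ± 4.29 to 105 ± 17.1 CPM in WT (SD, n = 3) and from 9.96 ± 4.51 to 151 ± 42.0 CPM in HIF2α AKO, by 3.75 ± 0.47 and 3.91 ± 0.48 on the log2 scale (edgeR adjusted p 0.000871 and 0.000406). Ppp1r1a, a phosphatase inhibitor that PKA activates, rose by 1.80 and 1.35, and Pde4d, a cAMP phosphodiesterase, by 1.46 and 1.21. Vasp, an actin regulator, fell by 0.53 and 0.44. Creb1, the factor that binds the CRE, fell by 0.50 and 0.42. The other calls, named after their values were seen, were small, with Sik3 at 0.25 in both genotypes, Kdm1a at -0.24 in WT and Itpr1 at 0.39 in HIF2α AKO. In these 4 lists 0 genes passed the limit in edgeR between genotypes at either temperature or in the interaction. An unadjusted p under 0.05 was reached in each of these 3 contrasts by 1 AKAP, Wasf1, and by 0 genes of the other 3 lists, against 2.95% of all genes in cold, 2.91% at TN and 2.14% in the interaction. Wasf1, an actin regulator, was -0.51 in cold, 0.68 at TN and -1.19 in the interaction on the log2 scale, with an adjusted p of 1.00, 0.999 and 1.00.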

How the data were processed

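RNA of iWAT from 12 mice was sequenced, 1 library per mouse, with 3 mice in each of 4 groups taken from the labels. The authors deposited raw read counts per gene, without normalization. Their processing notes name Trim Galore 0.4.4, STAR 2.6.1d, HTSeq 0.13.5 and DESeq2 1.30.0, with GRCm38, and the strand setting and annotation are not given in the sources used here. The table of the series and the per-mouse tables held the same counts for 12 of 12 libraries. Its 5 tallies of reads outside genes, 21.9 to 27.0% of the reads listed, were left out.

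Genes were kept by filterByExpr (minimum count 10, minimum total 15), scaled by TMM (factors 0.829 to 1.20) and fitted with R 4.3.3 and edgeR 4.0.16 as 1 quasi-likelihood model of 4 groups, with p-values adjusted by the Benjamini-Hochberg method and a limit of 0.05. The model was tested on simulated data. Log2 CPM for correlations used a prior count of 2. Shares were compared with two-sided exact permutation tests. Exon lengths and positions were taken from a GENCODE annotation of GRCm38. The named genes are the 9 members, Epas1, from each of 4 lists the 3 strongest rises and the 3 strongest falls among genes that passed in both genotypes, and the 5 genes most like Prkaca, Prkacb and Prkar2b. The members and lists were chosen with earlier results of these data known. Each edgeR p-value sets a group difference against the spread between these mice, estimated over all 4 groups. Each permutation p-value is a share of the arrangements of labels. Alternatives were RLE scaling, no filter, library size alone, DESeq2 1.42.0, limma 3.58.1 voom with quality weights, the compared groups alone, a replicate block, raw counts in place of levels per length, each mouse left out in turn, and both mice high in muscle markers left out.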

Additional observations from a re-analysis of the deposited data

How the results depend on the processing

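Prkaca and Prkar2b passed the limit for cold against TN in both genotypes under every alternative run. Library size alone and the omission of both mice high in muscle markers were added after the data had been seen. In HIF2α AKO, 3 members were called in edgeR, against 5 with library size alone, 5 with DESeq2, 5 with voom, and 2 to 5 with 1 mouse left out. RLE scaling and the compared groups alone called 4 there. Over all genes in HIF2α AKO, RLE scaling called 2497 higher and 1571 lower, and the compared groups alone 2556 and 1747. With 1 mouse left out, 1299 to 2406 of all genes were called higher there and 314 to 1749 lower. Over all 15306 genes, edgeR with TMM called 2381 higher and 1757 lower in HIF2α AKO, DESeq2 2985 and 2351, and voom 3214 and 2926. Library size alone called 1516 higher and 4849 lower, so the counts moved over all genes too. In WT, 3 members were called, against 4 with DESeq2, 4 with library size alone, of which 2 were lower, and 2 to 3 with 1 mouse left out. Over all genes in WT, edgeR with TMM called 2389 higher and 870 lower, DESeq2 2885 and 1815, and library size alone 1429 and 4459. With 1 mouse left out, 1149 to 2669 of all genes were called higher in WT and 157 to 1090 lower. The cold minus TN difference in the ratio of regulatory to catalytic level was 0.957 on raw counts in place of levels per length. Of 18 correlations between same-numbered mice, on deviations from the group means, 5 were over 0.1, with a range of -0.43 to 0.39. These values do not decide whether such mice were paired, and the labels give only a number. With a replicate block 3 members were called in WT, 3 in HIF2α AKO and 0 between genotypes. Over all genes the block called 2018 higher and 543 lower in WT, and 2090 and 1223 in HIF2α AKO. Between genotypes it called 1 gene at each temperature.

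The differences whose sign turned had not passed the limit in edgeR with TMM. Prkar1a in cold against TN, which DESeq2 called in both genotypes, was -0.11 in WT and -0.0099 in HIF2α AKO with library size alone. For HIF2α AKO against WT at TN, Prkar1a was 0.0095 with voom, and Pkig was -0.0037 without a filter, -0.040 with library size alone and -0.028 with voom. Without both mice high in muscle markers, Prkaca was -0.032 and Pkia -0.114. The Prkar2b interaction was 0.010 without a filter, 0.19 with voom and 0.015 without those mice. The cause was not tested. With 1 mouse left out, the ranges that held both signs were, on the log2 scale, for Pkia -0.54 to 0.070 in cold against TN in HIF2α AKO. In cold between genotypes they were -0.087 to 0.0019 for Prkacb, -0.32 to 0.032 for Prkar1b and -0.25 to 0.062 for Pkig. At TN they were -0.036 to 0.39 for Prkaca, -0.016 to 0.011 for Prkar1a, -0.11 to 0.44 for Pkia and -0.14 to 0.15 for Pkig. In the interaction they were -0.098 to 0.35 for Prkaca and -0.29 to 0.25 for Prkar2b. With 1 mouse left out, the rise in share was 12.0 to 15.5 percentage points for Prkaca and 20.6 to 25.7 for Prkar2b, with the longest transcript 19.2 and 24.5, and on raw counts 23.6 and 24.6, against 13.7 and 23.7 per kb of merged exons. The lowest counts per library were 68 to 359 for Pkib, 104 to 283 for Prkar1b and 148 to 556 for Pkia.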
